A study of Mus musculus with 4 samples.

Results

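The 10 genes described here are immediate early genes and phosphatases that act on MAP kinases: Fos, Fosb, Jun, Junb, Egr1, Atf3, Ier3, Phlda1, Dusp1 and Dusp6. They were taken as every probe set that the platform annotation pairs with only one of these symbols, which gave 16 of 12422 probe sets and 10 of 8251 genes. The arrays measured total RNA of mouse embryonic stem cells of the feeder-free line E14tg2a. In all, 4 groups were sampled with 1 array each. They are cells labelled Akt12, described as expressing constitutively active Akt, cultured without leukemia inhibitory factor (LIF) for 4 days; Akt12 cells with LIF at 3000 U/ml; Control cells without LIF for 4 days; and Control cells with LIF at 3000 U/ml. The promoter and the form of the Akt transgene, whether Akt12 is 1 clone, and whether Control cells carry a vector are details the labels leave unstated. No group has a replicate, so no difference between single arrays has a replicate check or a test.

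Immediate early genes are transcribed within minutes of a growth factor, serum or stress signal, without new protein synthesis, and many of them encode transcription factors. Signals reach them through the MAP kinases ERK, JNK and p38, which activate factors bound at their promoters, and the gene products then switch on a later set of genes. Dual-specificity phosphatases such as the products of Dusp1 and Dusp6 remove phosphate from MAP kinases and so close a feedback loop. In mouse embryonic stem cells LIF maintains the undifferentiated state through STAT3 and also activates ERK, while ERK signalling driven by FGF4 favours exit from that state. Akt is a kinase downstream of phosphoinositide 3-kinase.

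Promoter sequences are shown for the 4 genes that passed 2-fold upward when Control cells lost LIF and that have an entry in the RefSeq promoter table (GRCm38.p6); Phlda1 also passed 2-fold. Each is the 250 bases before the annotated start, 5′ to 3′ on the gene's strand. Capitals mark the cAMP response element TGACGTCA or its half-site TGACGT, the Jun promoter site TGACATCA and the TATA box TATAAA, on either strand. The full element contains the half-site, so such a match counts for both.
Fos, chr12:85473640-85473889, plus strand: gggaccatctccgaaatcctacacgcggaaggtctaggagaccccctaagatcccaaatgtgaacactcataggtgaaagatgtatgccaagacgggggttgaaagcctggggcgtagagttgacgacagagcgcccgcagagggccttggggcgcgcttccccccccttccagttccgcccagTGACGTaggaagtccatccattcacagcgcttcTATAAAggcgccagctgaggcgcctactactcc
Atf3, chr1:191183334-191183583, minus strand: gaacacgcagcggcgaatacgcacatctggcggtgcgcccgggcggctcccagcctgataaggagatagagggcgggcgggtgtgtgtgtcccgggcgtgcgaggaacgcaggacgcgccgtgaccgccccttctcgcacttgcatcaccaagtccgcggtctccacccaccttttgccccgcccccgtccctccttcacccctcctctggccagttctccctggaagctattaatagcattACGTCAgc
Jun, chr4:95052223-95052472, minus strand: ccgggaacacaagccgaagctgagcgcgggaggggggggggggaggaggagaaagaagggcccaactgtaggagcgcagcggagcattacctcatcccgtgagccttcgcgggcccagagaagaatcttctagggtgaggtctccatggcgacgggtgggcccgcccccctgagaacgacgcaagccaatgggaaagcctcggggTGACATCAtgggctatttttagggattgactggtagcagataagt
Dusp1, chr17:26508473-26508722, minus strand: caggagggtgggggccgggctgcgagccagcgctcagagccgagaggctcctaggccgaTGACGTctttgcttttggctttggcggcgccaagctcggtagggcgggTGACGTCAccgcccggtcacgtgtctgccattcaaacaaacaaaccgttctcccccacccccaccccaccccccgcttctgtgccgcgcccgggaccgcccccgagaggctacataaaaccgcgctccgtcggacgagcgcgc

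Promoters of 8 of the 10 genes were searched. The half-site TGACGT was present in 3 of these 8 (Fos, Atf3 and Dusp1, as ACGTCA on the other strand in Atf3), against 6.50% of 32536 distinct promoter windows of the same length. The full element was found in Dusp1 (1.56% of all windows), and the Jun promoter site, which was added to the search after the sequences were seen, in Jun (2.84%). A TATA box was found in Fos (12.3%). Neither the CArG box bound by serum response factor (1.48% of windows) nor the AP-1 site TGANTCA (6.73%) was found within any of the 8 windows. Bases further upstream were not searched, and no window of Egr1 or Phlda1 was searched. Windows of the 10 genes on a single chromosome were left out of the search, while windows on that chromosome stayed among all windows. The absence of a match therefore does not show that these genes lack such sites. The GC box GGGCGG, not capitalised above, was in 6 of the 8 (33.0%). The GC content of the 8 windows ran from 54.4% to 68.8%, against a median of 52.4% over all windows. The motif shares were not adjusted for GC content. These matches describe letters in the windows and say nothing of binding in these cells.

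All 10 genes gave a signal above the floor in at least 3 groups. The values are quantile normalized intensities, which can be compared between arrays for one probe set and not between genes, and those under 15.8 were set to that floor. Of the 16 probe sets, 12 were above the floor on at least 1 array and 4 (further probe sets of Fos, Egr1, Atf3 and Dusp6) on none. A gene with several probe sets is represented by the one with the highest mean. For the whole series, between 5625 and 5659 genes were above the floor on an array. RNA integrity is read from the ratio of 3′ to 5′ probe signal, which was for actin 2.48 and 3.04 in Akt12 cells without and with LIF, against 1.66 and 2.33 in Control cells without and with LIF. For Gapdh it was 2.46 and 3.05 in Akt12 cells, against 3.19 and 3.03 in Control cells, so the 2 ratios did not order the arrays alike. Of 10 markers of undifferentiated stem cells, 9 were above the floor in all 4 groups and Esrrb was at the floor in all. Akt1, whose probe set may not detect the transgene and so does not check the labels, had 71.6 and 71.0 in Akt12 cells without and with LIF, against 112 and 77.8 in Control cells without and with LIF. Pou5f1, which encodes a core pluripotency factor, ranged from 264 to 612. Where a gene had several probe sets, their log2 differences varied with an SD of 0.34 to 0.40 in the 4 comparisons. That spread is the one measure of error for a difference between single arrays, and it does not cover differences between cultures.

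**Figure D1:**
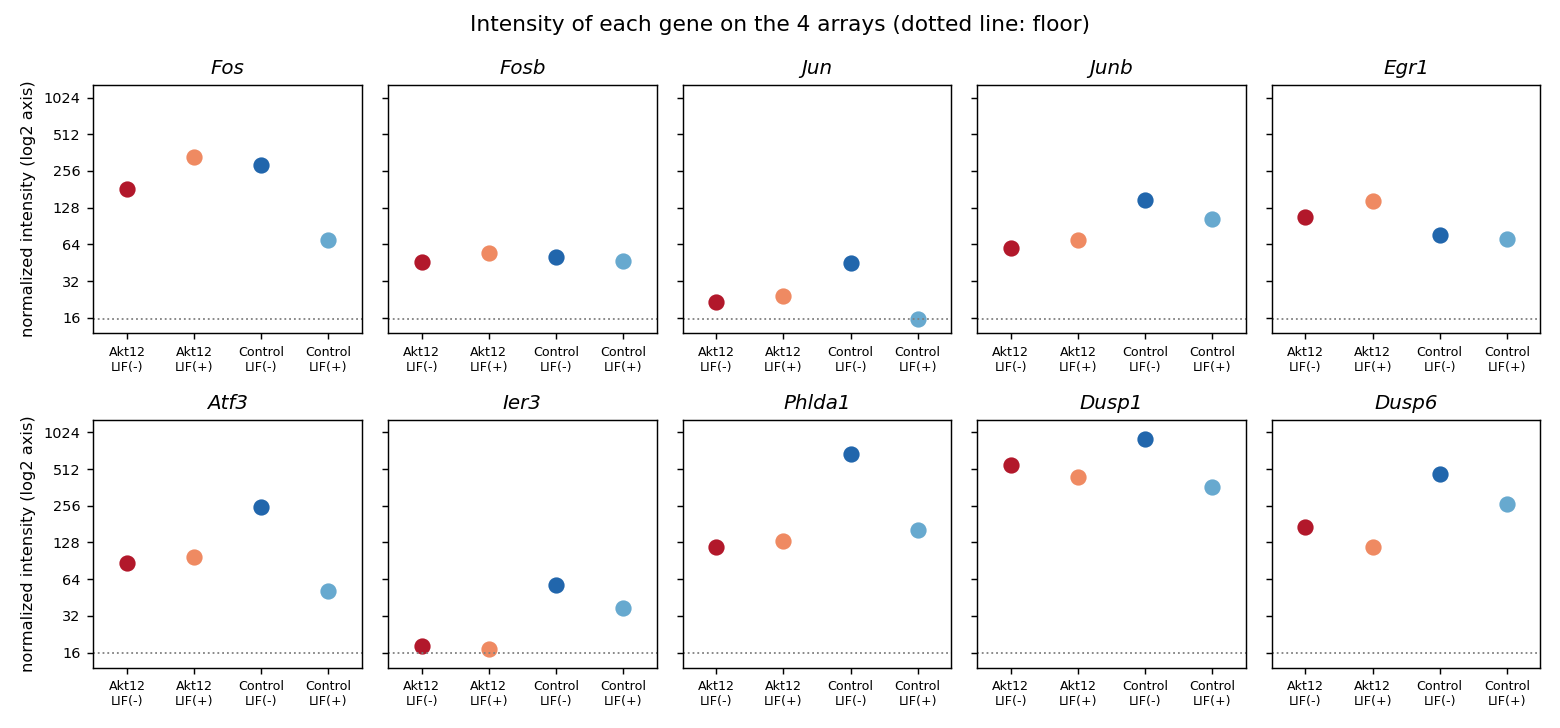
Normalized intensity (log2 axis) of each of the 10 genes on the 4 arrays, with 1 point per array and the floor of 15.8 as a dotted line. The point of Control cells without LIF is the highest for Jun, Junb, Atf3, Ier3, Phlda1, Dusp1 and Dusp6, whereas Fos, Fosb and Egr1 are highest in Akt12 cells with LIF.

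Withdrawal of LIF from Control cells was accompanied by higher levels of several of these genes. At least 2-fold higher were 5 of 10 (Atf3, Phlda1, Fos, Jun and Dusp1) and none was 2-fold lower. Among all 5984 genes above the floor on either array, 13.8% passed 2-fold, 7.39% upward and 6.4% downward. The median log2 difference was 1.06 over the 10 genes and -0.03 over all genes. All 10 lay above 0, as did 48.1% of all genes, but on the intensities as deposited Fosb (-0.07) and Egr1 (-0.13) lay below it.

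Marker genes differed between the same arrays. The summed intensity of 8 primitive streak and mesoderm markers was 469 and 208 in Akt12 cells without and with LIF, against 3558 and 763 in Control cells without and with LIF, with Mesp1 and Hand2 at the floor in all 4 groups. For 10 trophoblast markers it was 1001 and 823 in Akt12 cells, against 2584 and 891 in Control cells, without and with LIF. Cdx2 was above the floor only in Control cells without LIF, and there only just (17.95). For 10 fibroblast markers the sum was 393 and 415 in Akt12 cells, against 640.2 and 325 in Control cells, without and with LIF, with Postn and Fap at the floor in all 4 groups. Above the floor were 5 of these 10 in every group but Control cells without LIF, which had 8. Among those 8, Lum (15.9) was barely above the floor of 15.8. The 10 undifferentiated-cell markers summed to 7566 and 11534 in Akt12 cells, against 4156 and 10653 in Control cells, without and with LIF. The 10 endoderm markers summed to 740.2 and 606 in Akt12 cells, against 581 and 358 in Control cells, without and with LIF. With LIF, Gata4 (at least 3.74-fold), Sox17 (at least 3.56-fold) and Lama1 (3.47-fold) were higher in Akt12 than in Control cells, while Ttr, Hnf4a and Foxa2 were at the floor in all 4 groups. Sums of 9 neuroectoderm markers ranged from 781 to 942 over the 4 arrays. Within them, on LIF withdrawal in Control cells, Sox3 was 3.88-fold higher and Tubb3 1.66-fold lower. A sum is governed by its genes of highest intensity. For primitive streak and mesoderm markers in Control cells without LIF, these were Tagln (1318.5), Acta2 (903.5) and Actc1 (790). For trophoblast markers in the same group, they were Krt8 (768), Krt18 (627) and Krt19 (538). The part of other cell types in the values of the 10 genes was not tested, and fewer cells of a type cannot be told apart from less RNA per cell.

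Among the AP-1 factors, Fos encodes the partner with which Jun proteins form the AP-1 dimer. Its intensity was 184 and 330.2 in Akt12 cells without and with LIF, against 285 and 69.0 in Control cells without and with LIF. Control cells with LIF were thus low and the other 3 groups high. Fos was 4.13-fold higher in Control cells without LIF than with it, and 86 of the 5984 genes differed by more in that direction. A second Fos probe set was at the floor on all 4 arrays, and the mean of both probe sets gave a log2 difference of 1.02.

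Jun, whose product can bind its own promoter, had 21.65 in Akt12 cells without LIF, 24.0 in Akt12 cells with LIF and 45.4 in Control cells without LIF, and it was at the floor in Control cells with LIF. The difference after withdrawal in the Control line was therefore at least 2.88-fold. The values lie close to the floor, and with an offset of 16 in place of the floor the log2 difference was 0.95. Junb encodes a Jun relative with weaker activating capacity. It stood at 59.4 and 69.0 in Akt12 cells without and with LIF, and at 149 and 103 in Control cells without and with LIF. The difference after withdrawal in Control cells was 0.53 on the log2 scale for this probe set and 1.47 for a second one. Both Akt12 arrays lay below both Control arrays. Fosb, a Fos relative, varied least, with intensities between 46.25 and 54.9 over the 4 arrays.

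Atf3 encodes a stress-induced factor of the ATF/CREB family. Its intensity was 86.9 and 97.6 in Akt12 cells without and with LIF, against 252 and 51.05 in Control cells without and with LIF. The first of these Control arrays was above the other 3 arrays. The difference after withdrawal in Control cells was 4.94-fold, exceeded upward by 51 genes. Its probe set is of a class that may detect related transcripts, and a second probe set gave a 2.46-fold difference in the same direction. Egr1, a zinc finger factor induced by ERK, had 107 and 145 in Akt12 cells without and with LIF, and 76.9 and 70.4 in Control cells without and with LIF. In Control cells it therefore differed by only 0.13 on the log2 scale after withdrawal.

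Phlda1 encodes a pleckstrin homology-like domain protein that is induced by growth factors. It was at 116 and 131 in Akt12 cells without and with LIF and at 675 and 163 in Control cells without and with LIF. Control cells without LIF stood apart from the other 3 groups, 4.14-fold above Control cells with LIF. Ier3, which encodes a regulator of cell survival, had 18.0 and 17.1 in Akt12 cells without and with LIF, just above the floor, and 57.7 and 37.0 in Control cells without and with LIF.

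Dusp1 encodes a nuclear phosphatase of JNK, p38 and ERK and is itself an immediate early gene. Its intensity was 557 and 436 in Akt12 cells without and with LIF, against 903 and 368 in Control cells without and with LIF. The difference after withdrawal in Control cells was 2.46-fold, or 0.95 on the log2 scale on the intensities as deposited. Dusp6 encodes a cytoplasmic phosphatase selective for ERK whose transcription follows ERK activity. It had 171 and 117 in Akt12 cells without and with LIF, and 469.8 and 266 in Control cells without and with LIF. The log2 difference after withdrawal was 0.82 in Control cells, and both Akt12 arrays lay below both Control arrays.

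Withdrawal of LIF from Akt12 cells was accompanied by a 2-fold difference in none of the 10 genes. Of 5945 genes, 6.66% passed it, 3.01% upward and 3.65% downward. A count of none in 10 is near that share, so nothing is read from it. Over the 10 genes the median log2 difference was -0.17 (0.01 over all genes), and 3 lay above 0 and 7 below. The difference furthest below 0 was that of Fos at -0.85, which was -1.14 on scaling to the hybridization controls. That scaling placed the median of all genes in this comparison at -0.21. Egr1 had -0.44, Fosb -0.25, Junb -0.22, Phlda1 -0.17, Atf3 -0.17 and Jun -0.15. The phosphatase genes lay on the other side, with Dusp6 at 0.54 and Dusp1 at 0.35, and Ier3 stood at 0.08 (-0.10 on scaling to the hybridization controls).

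**Figure D2:**
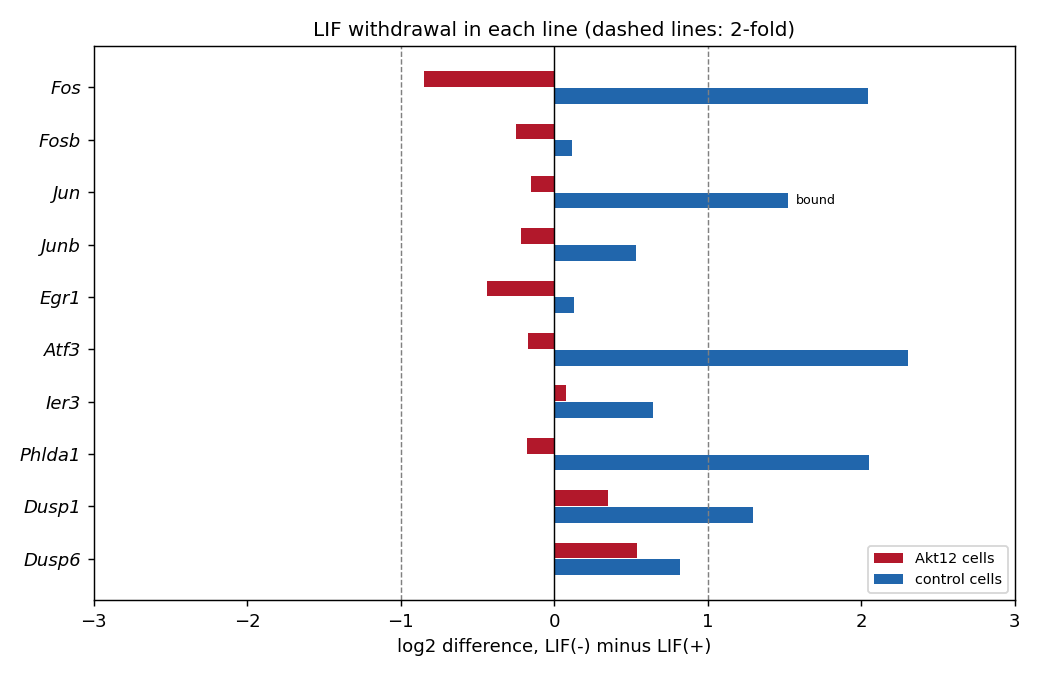
Log2 difference of each gene on LIF withdrawal, LIF(-) minus LIF(+), in Akt12 cells (red, upper bar) and in Control cells (blue, lower bar), from 1 array per group. Bars of Control cells pass the dashed 2-fold line for Fos, Jun (a bound, since 1 array is at the floor), Atf3, Phlda1 and Dusp1, and no bar of Akt12 cells passes it.

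In the quantile normalized values, the response of Akt12 cells was below that of Control cells for each of the 10 genes. The difference between the responses had a median of -0.85 in log2 against 0.01 over 6258 genes, of which 49.7% lay below 0. For 4 genes it was -1 or lower: Fos (-2.89), Atf3 (-2.47), Phlda1 (-2.22) and Jun (-1.67, with 1 array at the floor). That applied to 9.27% of all genes, and a size of at least 1 in either direction to 18.5%. Dusp1 came next at -0.94, and the smallest differences were those of Dusp6 (-0.28) and Fosb (-0.36). Both are smaller than the SD of 0.40 between probe sets on LIF withdrawal in Control cells. The difference also involves the response of Akt12 cells, with an SD of 0.34. Neither SD alone measures its spread, which was not computed. As deposited, Dusp6 had intensities of 142.3 and 98.8 in Akt12 cells and 462 and 338.8 in Control cells, without and with LIF. On that scale the Dusp6 response was larger in Akt12 cells, so the order of the lines did not hold for all 10 genes. With 4 arrays in 4 groups this difference has no error estimate and was not tested.

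Without LIF, the genes were mostly lower in Akt12 than in Control cells. At least 2-fold lower were 6 of 10, namely Phlda1 (5.80-fold), Ier3 (3.20-fold), Atf3 (2.90-fold), Dusp6 (2.75-fold), Junb (2.51-fold) and Jun (2.10-fold), and none was 2-fold higher. Of 6009 genes, 14.0% passed 2-fold, 8.12% downward and 5.87% upward. The median log2 difference was -1.20 over the 10 genes and 0.06 over all genes. Egr1 was the one gene above 0, at 0.48. With the mean of all probe sets the log2 difference was -0.90 for Atf3 and -0.73 for Dusp6, with a floor at the 60th percentile it was -0.27 for Ier3, and with an offset of 16 it was -0.71 for Jun. This comparison shares the array of Control cells without LIF with the withdrawal of LIF from Control cells, so the counts of the 2 comparisons are not independent.

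With LIF, the same genes went both ways. Fos was 4.79-fold higher in Akt12 than in Control cells, and 13 of 5938 genes differed by more in that direction. The mean with its second probe set, which was at the floor on all 4 arrays, gave a log2 difference of 1.13 in place of 2.26. Egr1 was 2.06-fold higher, while Dusp6 was 2.26-fold and Ier3 2.17-fold lower. The other 6 lay between, from Atf3 at 0.93 to Junb at -0.58 in log2. A second Atf3 probe set, above the floor on all 4 arrays, gave 0.06. Among all genes 7.14% passed 2-fold, 3.5% upward and 3.64% downward, and the medians were 0.24 over the 10 genes and 0.01 over all genes. On the intensities as deposited, where the median of all genes stood at -0.52, Egr1 had a log2 difference of 0.48, Dusp1 of -0.35 and Fosb of -0.31. Fos, Dusp6 and Ier3 stayed past 2-fold on that scale, at 1.74, -1.78 and -1.54. Ier3 stood at -0.94 on scaling to the hybridization controls and at -0.68 with the offset. With the mean of all probe sets Egr1 stood at 0.52 and Dusp6 at -0.59. Junb passed 2-fold on the intensities as deposited (-1.15), and Atf3 on scaling to the hybridization controls (1.12).

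**Figure D3:**
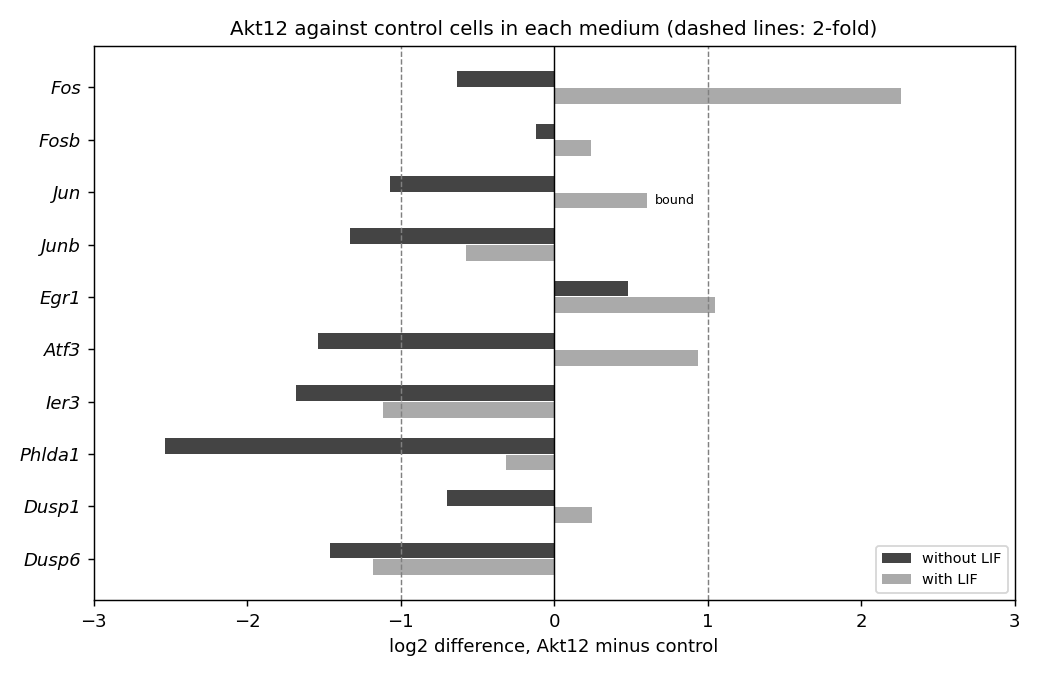
Log2 difference of each gene, Akt12 minus Control cells, without LIF (dark, upper bar) and with LIF (light, lower bar), from 1 array per group. Dusp6 and Ier3 pass the dashed 2-fold line downward in both media, and Fos has 2.26 with LIF and -0.63 without.

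Dusp6 and Ier3 were thus at least 2-fold lower in Akt12 cells in both media, and Junb was lower in both by 1.33 and 0.58 in log2 without and with LIF. Over both media, a limma model fitted line and LIF as additive terms. Its error for a gene came mostly from a variance pooled over all genes (8.69 prior degrees of freedom). The difference between the gene's own responses in the lines supplied only the 1 residual degree of freedom. This limma model gave Ier3 a log2 difference of -1.40 ± 0.33 (SE, adjusted p = 0.138). The same limma model gave Dusp6 -1.32 ± 0.32 (SE, adjusted p = 0.141), Phlda1 -1.42 ± 0.48 (SE, adjusted p = 0.311) and Junb -0.95 ± 0.34 (SE, adjusted p = 0.361). None of the 10 passed an adjusted p of 0.05 in limma for the line, and 5 had an unadjusted p under 0.05, where 0.623% and 9.64% of 6258 genes did. Fitted to the 5027 genes that no array had at the floor, limma gave adjusted p-values of 0.0204 for Phlda1, 0.0236 for Ier3 and 0.0388 for Dusp6. In that fit every gene had the same variance, so the difference between a gene's own responses had no separate weight in its error. For Phlda1 the log2 difference between the lines was -2.54 without LIF and -0.31 with LIF. Over the 10 alternatives run for limma, the adjusted p-values ranged from 0.00928 to 0.642 for Phlda1, from 0.0236 to 0.985 for Ier3 and from 0.0230 to 0.598 for Dusp6. For LIF withdrawal over both lines, 0 of the 10 passed in limma and 1 (Dusp1, log2 difference 0.82 ± 0.35 SE, adjusted p = 0.515) had an unadjusted p under 0.05. Of all genes, 0.304% and 9.32% did. No alternative to this limma fit called any of the 10 for LIF.

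**Figure D4:**
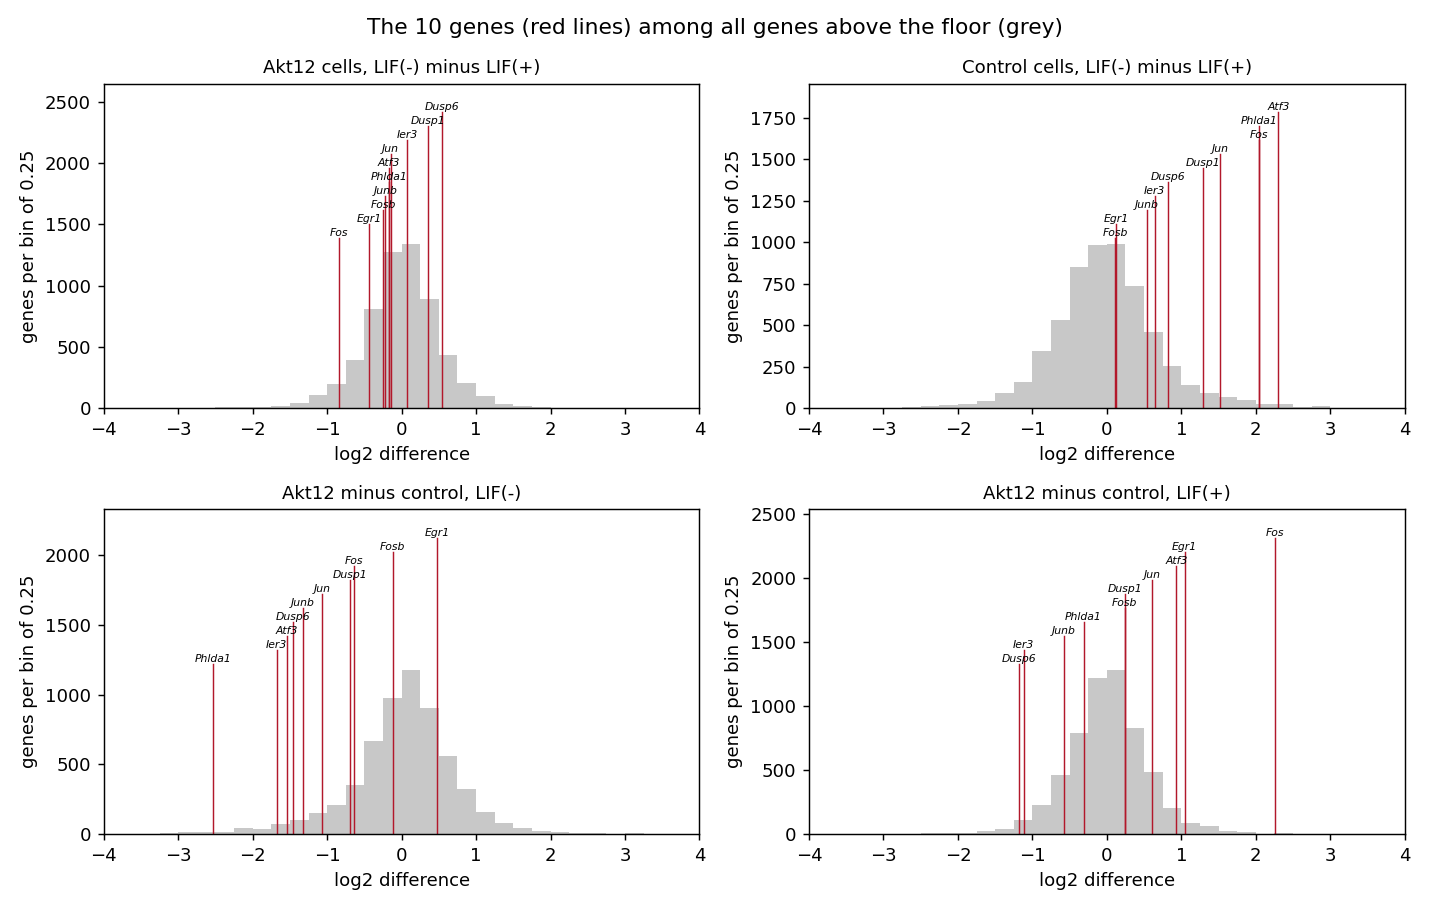
Number of genes per bin of 0.25 in log2 difference (grey) for the 4 comparisons, with a red line at the value of each of the 10 genes. The lines lie at or above 0.11 for LIF withdrawal in Control cells and between -0.85 and 0.54 in Akt12 cells.

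Other genes of the pathway were taken from 6 lists. Of 18 measured immediate early genes that are no transcription factors, LIF withdrawal in Control cells left 8 past 2-fold upward and 1 downward, where 7.39% and 6.4% of all genes were, with a median log2 difference of 0.71. Higher were Rhob, a small GTPase (5.40-fold), Gadd45b, an activator of stress kinases (4.25-fold), and the matricellular gene Ccn1 (3.57-fold). The others were Cxcl1 (at least 3.01-fold), Plaur (2.90-fold), the NF-kB inhibitor gene Nfkbia (2.86-fold), the RNA-decay factor gene Zfp36 (2.17-fold) and Plk2 (2.10-fold). Sgk1, a serum-induced kinase gene, was 3.97-fold lower. In Akt12 cells, 1 of 16 was higher on withdrawal (Gadd45b, 2.23-fold) and 1 lower (Hbegf, 2.04-fold), with a median of 0.06, where 6.66% of all genes passed 2-fold in either direction. Without LIF, 8 of 18 were at least 2-fold lower in Akt12 than in Control cells and none was higher, where 8.12% and 5.87% of all genes were. Ccn1 (7.56-fold) and Gadd45b (6.38-fold) were the furthest apart. This count uses the same array of Control cells without LIF as the count on withdrawal in Control cells, so they are not independent. With LIF, 2 of 16 were higher in Akt12 cells (Plk2 and Rhob) and 4 lower (Ccn1, Gadd45b, Sgk1 and Ccn2), where 3.5% and 3.64% of all genes were.

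Of 9 measured immediate early transcription factor genes outside the 10, Klf6 was 3.01-fold higher and Klf2 at least 4.66-fold lower in Control cells without LIF. In Akt12 cells Klf2 was 2.51-fold lower and none was 2-fold higher. Between the lines, Klf2 was at least 4.31-fold higher and Klf6 2.68-fold lower in Akt12 cells without LIF, and Klf2 was 2.32-fold higher and Myc 2.45-fold lower in Akt12 cells with LIF. Of 6 further dual-specificity phosphatase genes, Dusp2 (2.42-fold) and Dusp8 (at least 2.31-fold) were higher after withdrawal in Control cells, and none differed by 2-fold in Akt12 cells. Dusp16 (2.47-fold) and Dusp8 (2.27-fold) were lower in Akt12 than in Control cells without LIF. The 4 measured ERK feedback genes differed by 2-fold in none of the 4 comparisons. Of all genes, 6.66% passed 2-fold on withdrawal in Akt12 cells and 13.8% in Control cells. Between the lines, 14.0% did without LIF and 7.14% with LIF. Nothing is read from counts of 0 to 2 in these short lists.

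In the MAP kinase cascade itself, LIF withdrawal in Control cells left 1 of 21 measured genes past 2-fold upward and 3 downward (median 0.04). In all 4 of 21 passed, against 13.8% of all genes, so nothing is read from this count. Mapkapk2, a kinase downstream of p38, was 2.65-fold higher. Fgf4, the ligand that activates ERK in these cells, was 5.16-fold lower, Sos1, a Ras exchange factor, 2.15-fold lower and Map2k6 at least 3.24-fold lower. In Akt12 cells none of 22 differed by 2-fold on withdrawal, against 6.66% of all genes. Of 8 factors that bind immediate early promoters, Mef2d (2.80-fold) and Mef2a (2.41-fold) were higher after withdrawal in Control cells, and none of 9 differed by 2-fold in Akt12 cells. Without LIF, Fgf4 (6.16-fold) and Sos1 (2.17-fold) were higher in Akt12 than in Control cells. Mapkapk2 (3.19-fold), Mef2a (-1.58 in log2), Map3k1 (2.52-fold) and Mef2d (2.26-fold) were lower. With LIF, Map2k6 was 2.04-fold lower in Akt12 cells, and no other gene of these 2 lists passed 2-fold. Of all genes, 14.0% passed 2-fold between the lines without LIF and 7.14% with LIF, and nothing is read from these few genes.

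**Figure D5:**
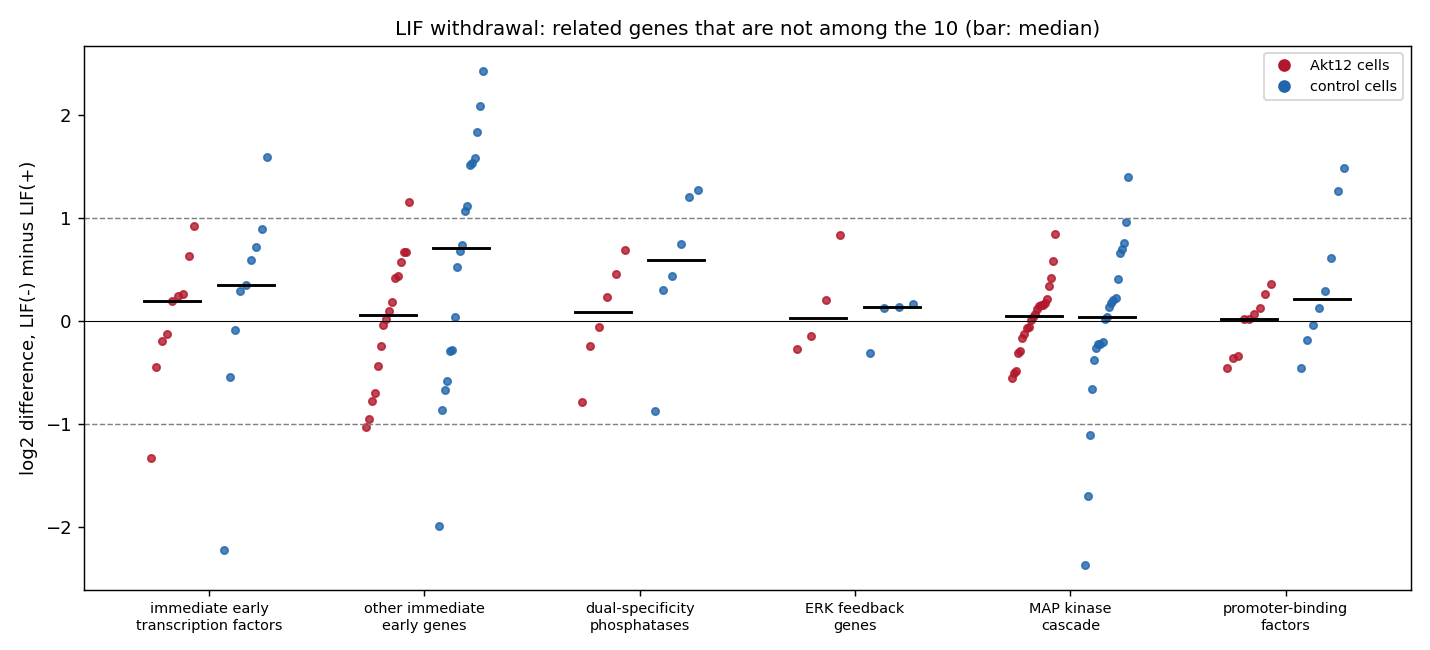
Log2 difference on LIF withdrawal, LIF(-) minus LIF(+), of related genes that are not among the 10, by list, in Akt12 cells (red, left) and Control cells (blue, right), with 1 point per gene and a bar at the median. The widest gap between medians is that of immediate early genes that are no transcription factors, at 0.06 in Akt12 cells and 0.71 in Control cells.

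The genes whose pattern was nearest to each of the 10 were sought among 5027 genes above the floor on all 4 arrays, by the Euclidean distance of log2 values centred on their own mean. Fosb was left out because its range over the arrays is under 1, and Jun because it is at the floor on 1 array. The nearest genes were Sgce for Fos (distance 0.48), Dock5 for Junb (0.04), Eng for Egr1 (0.07) and Rhob for Atf3 (0.32). They were Cadm1 for Ier3 (0.13), Vmp1 for Dusp1 (0.09), Map7d1 for Dusp6 (0.09) and Prnp for Phlda1 (0.16). Within the 10, Dusp6 and Ier3 were nearest to each other (0.36), and Fos was 1.23 from its nearest, Atf3. A distance over 4 arrays describes these arrays only.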

How the data were processed

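RNA of 4 cell groups was measured on 1 Affymetrix array each. The deposited intensities are linear, 1 per probe set; neither the software nor any scaling is named in the labels. Array controls (66 of 12488 probe sets) were left out, and limma 3.58.1 (R 4.3.3) was used for quantile normalization of the rest, because the 2% trimmed means ran from 80.3 to 121. Quantile normalization removes a shift common to most genes. Values under the 40th percentile, 15.8, were raised to that floor before taking log2. Symbols of 10817 of 10833 probe sets with 1 symbol were updated through RefSeq gene identifiers; 396 had several symbols and 1193 none. A log2 difference of at least 1 in size was counted as 2-fold. The limma model (lmFit, eBayes, two-sided, Benjamini-Hochberg over 6258 genes) has 1 residual and 8.69 prior degrees of freedom. It was tested on simulated data with equal noise for every gene and the same LIF effect in both lines. In the real data the responses of the lines differed by at least 1 in log2 for 18.5% of genes. The simulation therefore does not show how the model behaves here. The p-values of the model reflect only how these 4 arrays vary, and precision is limited by their number. Genes named are the 10, members of the 6 lists at least 2-fold different, and the nearest genes by pattern. The 10 genes and the lists were chosen with earlier results of these data known. Alternatives covered scaling, floor, choice of probe set, the limma filter and its trend.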

Additional observations from a re-analysis of the deposited data

Results flagged for a closer look

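The LIF responses of the lines had opposite signs for 7 of the 10 genes, where 42.1% of 6258 genes had responses of opposite sign. Among genes above the floor on all 4 arrays it was 6 of 9, where 46.7% of 5027 did. On the intensities as deposited the count was 5 of 10, since Fosb and Egr1 were then below 0 in both lines. For 4 of the 7 at least one response was 2-fold or more. For Fos the response of Akt12 cells minus that of Control cells was -2.89 in log2. For Atf3 it was -2.47, for Phlda1 -2.22 and for Jun -1.67. These differences were not tested, because each response rests on 1 pair of arrays. The responses of Akt12 cells behind them were -0.17 for Atf3 and for Phlda1, -0.15 for Jun and -0.85 for Fos. As the mean of both of its probe sets, Fos had -0.42. A second Atf3 probe set gave 0.06 in Akt12 cells and 1.30 in Control cells, so its responses had the same sign. The Akt12 responses of Atf3, Phlda1 and Jun, with Junb at -0.22 and Fosb at -0.25, were smaller than the SD of 0.34 between probe sets in Akt12 cells. For Egr1 the response of Control cells (0.13) was smaller than the SD of 0.40 there. The sign of these small responses is therefore not resolved.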

How the results depend on the processing

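No paired analysis was possible because each group holds 1 array and so shares only 1 replicate number; the limma model already compares media within lines and lines within media. Of 306 values of the 10 genes under 8 alternatives, 281 moved by less than the SD between probe sets, 25 moved by more, and no 2-fold difference changed its sign. Against 15 differences past 2-fold in the values reported, the 2-fold line was crossed 16 times, and Egr1 with LIF fell short of it as deposited (0.48), with the offset (0.90) and with the mean of all probe sets (0.52). Scaled to the hybridization controls, 1 of the 10 (Fos) was 2-fold different on LIF withdrawal in Akt12 cells, against 0. For Akt12 against Control cells with LIF, 2 of the 10 were 2-fold different with an offset of 16 in place of the floor and 2 with the mean of all probe sets, against 4. For the line term, limma called 2 of the 10 (Dusp6 and Phlda1) with that offset and 3 (with Ier3) when fitted to genes that no array had at the floor, against 0; in the second of these fits eBayes gave every gene the same variance. Over the alternatives, limma called 0 to 155 genes for LIF (19 in the fit reported) and 0 to 184 for the line (39). Among all 2-fold different genes, the share that was higher was 30.2% on the intensities as deposited against 53.6% for LIF withdrawal in Control cells, 18.8% against 42.0% for Akt12 against Control cells without LIF, and 6.18% against 49.1% with LIF. Scaled to the hybridization controls it was 20.3% against 45.2% for LIF withdrawal in Akt12 cells and 66.8% against 49.1% for Akt12 against Control cells with LIF. At a floor of the 60th percentile Jun was at the floor on all 4 arrays. The cause of these changes was not tested.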
